A study of Mus musculus with 11 samples.

Results

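The genes described here are 37 mouse genes of glycolysis and of the response to low oxygen, picked by name from the 36528 gene IDs in the files. They are 24 glycolytic genes (glucose and lactate transporters, the enzymes from hexokinase to lactate dehydrogenase, and enzymes that set the pathway's rate), 11 other targets of the hypoxia-inducible factors (HIFs), and the HIF alpha subunit genes Hif1a and Epas1. All 37 passed the low-count filter that kept 18224 genes for testing, but Slc2a3 and Ldhb passed through YAP-S127A alone, and Car12 through the YAP groups alone. Levels of these genes were compared between the 3 groups of lines, and the glycolytic genes were set beside the other HIF targets.

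PolyA RNA was sequenced from cell lines that came from mouse liver tumours. The 5 TAZ-S89A libraries carried TAZ with alanine in place of serine at the site in its name, the 3 YAP-5SA libraries (YAP-S5A in the sample labels) carried YAP changed at several such serines, and the 3 YAP-S127A libraries carried YAP changed at its single named site. YAP and TAZ are coactivators that drive TEAD transcription factors, and the serines are sites where Hippo pathway kinases hold them back, so all 3 groups hold a form that escapes this control. No group without such a mutation was analysed here, and the labels give neither the promoter of the mutant gene nor the mouse strain, the age or the oxygen level of the cultures. Whether the libraries within a group stem from different tumours, lines or culture dishes is not in the labels. The p-values therefore reflect the spread among these libraries alone, possibly a technical one, and the mutant and the identity of a line cannot be told apart.

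Glycolysis splits glucose into pyruvate in the cytosol, and in many tumour cells much of that pyruvate becomes lactate, which leaves through monocarboxylate transporters. In normal oxygen, prolyl hydroxylases of the Egln family mark the HIF alpha proteins for destruction, so the alpha subunits are governed mainly at the protein level and their mRNA does not report their activity. In low oxygen the alpha subunit persists, pairs with Arnt, and binds short response elements near genes of glycolysis, pH control, matrix modification and its own feedback. In liver, hepatocytes take up glucose mainly through Slc2a2, while cultured tumour cells mostly use Slc2a1, Hk2 and Pkm.

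The windows of 250 bases before the start sites of 6 members are shown because the levels of these genes led in different groups, and because the core of a hypoxia response element can be read in 5 of them. Capitals mark ACGTG and GCGTG and their reverse complements CACGT and CACGC, each window being written 5′ to 3′ in the direction of its gene. Pgk1, Ldha and Egln3, with their highest mean in YAP-5SA, Slc16a1, highest in TAZ-S89A, P4ha1, highest in YAP-S127A, and Car12, nearly absent in TAZ-S89A, follow in this order, from RefSeq on GRCm38.p6.
Pgk1, chrX:106186850-106187099, + strand: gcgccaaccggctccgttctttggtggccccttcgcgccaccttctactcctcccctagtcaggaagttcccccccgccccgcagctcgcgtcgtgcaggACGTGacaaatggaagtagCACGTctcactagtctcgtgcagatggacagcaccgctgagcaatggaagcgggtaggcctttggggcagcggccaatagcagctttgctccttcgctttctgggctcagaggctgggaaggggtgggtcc
Ldha, chr7:46845554-46845803, + strand: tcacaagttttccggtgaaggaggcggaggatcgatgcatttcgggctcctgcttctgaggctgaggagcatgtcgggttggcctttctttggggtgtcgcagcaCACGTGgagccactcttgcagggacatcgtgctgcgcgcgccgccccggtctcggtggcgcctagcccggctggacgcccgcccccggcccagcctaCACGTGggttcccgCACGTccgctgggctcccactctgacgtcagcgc
Egln3, chr12:54203875-54204124, - strand: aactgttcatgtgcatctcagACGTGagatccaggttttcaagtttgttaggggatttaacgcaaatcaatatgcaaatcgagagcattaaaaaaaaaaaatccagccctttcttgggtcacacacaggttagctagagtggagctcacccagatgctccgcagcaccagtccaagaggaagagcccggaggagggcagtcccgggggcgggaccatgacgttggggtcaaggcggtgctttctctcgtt
Slc16a1, chr3:104638414-104638663, + strand: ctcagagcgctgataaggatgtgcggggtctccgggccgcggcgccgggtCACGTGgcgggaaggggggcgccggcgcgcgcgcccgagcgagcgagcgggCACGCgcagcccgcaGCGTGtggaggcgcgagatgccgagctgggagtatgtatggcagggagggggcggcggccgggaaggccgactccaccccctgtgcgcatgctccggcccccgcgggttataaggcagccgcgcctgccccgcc
P4ha1, chr10:59323046-59323295, + strand: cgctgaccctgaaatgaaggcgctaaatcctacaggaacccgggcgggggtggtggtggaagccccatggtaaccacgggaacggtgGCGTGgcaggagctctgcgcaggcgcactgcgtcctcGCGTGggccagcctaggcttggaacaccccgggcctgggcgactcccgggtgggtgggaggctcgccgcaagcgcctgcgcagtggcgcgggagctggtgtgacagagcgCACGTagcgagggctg
Car12, chr9:66713436-66713685, + strand: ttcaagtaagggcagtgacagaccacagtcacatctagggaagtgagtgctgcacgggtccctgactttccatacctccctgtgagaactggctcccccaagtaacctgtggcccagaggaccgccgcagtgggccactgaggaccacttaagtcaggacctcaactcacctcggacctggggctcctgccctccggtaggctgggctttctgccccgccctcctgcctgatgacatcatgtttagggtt
Of a gene's windows without bases in annotated exons, the one with the most matches is shown. The Ldha window shown holds 5 matches, of which those within each CACGTG overlap as the forward and reverse reading of the same letters. Another Ldha window without exon bases holds 1. Slc16a1 holds 4, P4ha1 3, Pgk1 2 and Egln3 1, and these letters are not in the Car12 window shown. RefSeq windows were found for 34 members and none for Slc2a3, Ndrg1 and Epas1. Of those 34 genes, 30 held a core on either strand in at least 1 window (88.2%), against 41.5% of the 27025 genes in the table. ACGTG, read on either strand, stood in 46.9% of the 49 member windows and in 16.6% of all 32851. Bases G and C made up a median of 61.6% of member windows and 52.4% of all windows, and the part of base composition in the match shares was not tested.

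Total counts ran from 20071144 to 49159713 per library, and the shallowest, TAZ-S89A replicates 4 and 5, bear sample IDs of a second number series. These 2 libraries and TAZ-S89A replicates 1 and 2 formed close pairs, with a chi-square per degree of freedom of 2.02 and 5.85, against 105 to 221 for the other TAZ-S89A pairs. In YAP-S127A replicates 1 and 2 were about as close, at 6.6, and its other pairs stood at 16.2 and 35.0. YAP-5SA replicates 1 and 3 stood at 16.4, and its other pairs at 87.9 and 140. Only TAZ-S89A pairs were merged among the alternatives below. Summed over 12 hepatocyte markers, CPM (counts scaled to library size on the TMM scale of edgeR) ran from 3.67 to 5.52 in TAZ-S89A, from 733 to 817 in YAP-5SA and from 108 to 122 in YAP-S127A, with Serpina1a at 0 in every library. Summed over 8 macrophage and leukocyte markers it ran from 8.43 to 9.65, from 59.9 to 65.3 and from 15.0 to 15.2 in the same order of groups, and over 6 endothelial markers it stayed at or below 2.52. Biliary and progenitor markers summed to 1759 to 3664, 2721 to 4274 and 478 to 602 CPM, and mesenchymal and stellate markers to 3599 to 4699, 4522 to 4837 and 8585 to 9159 CPM. Single markers did not all follow the sum of their list, by the test given below. Of 5 hepatocyte markers tested, 3 were called higher and 1, Alb, lower in YAP-5SA than in YAP-S127A. Of 6 biliary and progenitor markers tested, 3 were higher and 2 lower there. Of 8 mesenchymal and stellate markers tested, 4 were higher and 3 lower in TAZ-S89A than in YAP-5SA. The sums are therefore no measure of cell identity. The part of these marker differences in the differences below was not tested. In bulk RNA fewer cells with a transcript and less transcript per cell cannot be told apart.

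About as many of the 37 genes differed between groups as did genes in general. Between TAZ-S89A and YAP-5SA, 23 were called by edgeR's quasi-likelihood test at a Benjamini-Hochberg adjusted p under 0.05 (62.2%), against 57.9% of all genes tested. Between TAZ-S89A and YAP-S127A 24 were called (64.9%, against 57.6%), and between YAP-5SA and YAP-S127A also 24 (against 55.2%). These shares lie near the background, and are read as no result about the set. The directions were 8 higher and 15 lower in TAZ-S89A than in YAP-5SA, where 26.9% and 31.0% of all genes were called higher and lower. They were 12 and 12 in TAZ-S89A against YAP-S127A (27.0% and 30.6% of all genes), and 14 and 10 in YAP-5SA against YAP-S127A (28.2% and 27.0%). Called members with an absolute log2 fold change of 1 or more numbered 12 (33.8% of all genes), 13 (32.2%) and 14 (34.4%) in the 3 comparisons, and members whose libraries did not overlap 21 (52.0%), 23 (57.8%) and 31 (69.6%). The calls of 18, 19 and 20 members in these comparisons held under all of the up to 22 alternative settings tried. With other normalization factors, DESeq2, limma-voom, no low-count filter or only the 2 groups compared, 1 or more calls of Gpi1, Tpi1, Pgk1, Pkm, Pfkfb3, Egln1, P4ha1 and Hif1a were lost.

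The counts were also split by role. Of 24 glycolytic genes, 3 were higher and 11 lower in TAZ-S89A than in YAP-5SA, with a median log2 fold change of -0.50, where 26.9% of all genes were higher and 31.0% lower. Of the 11, the calls of Gpi1, Tpi1, Pgk1 and Pdk1 did not hold under all alternatives, and Slc2a3 and Ldhb passed the filter through YAP-S127A alone. Of 11 other HIF targets, 4 were higher and 4 lower, with a median of 0.03, and the median of all tested genes was -0.04. Against YAP-S127A, TAZ-S89A had 6 glycolytic genes higher and 9 lower (median -0.10) and 5 other HIF targets higher and 3 lower (median 0.31), beside a median of -0.03 over all genes. YAP-5SA against YAP-S127A had 10 glycolytic genes higher and 6 lower (median 0.40) and 4 other HIF targets higher and 3 lower (median 0.12), beside 0.01 over all genes. The glycolytic median for YAP-5SA against YAP-S127A was 0.28 without YAP-5SA replicate 2. The medians of the other HIF targets were less stable, at -0.14 for TAZ-S89A over YAP-5SA with the ID series as a covariate and at -0.02 for YAP-5SA over YAP-S127A without YAP-5SA replicate 2. No test was made of the 2 sets against each other.

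Taken gene by gene, 3 members were called higher in TAZ-S89A than in both other groups, 8 in YAP-5SA and 6 in YAP-S127A. Over all tested genes these shares were 13.0%, 17.1% and 14.9%, beside 8.11%, 21.6% and 16.2% of the members. The 3 of TAZ-S89A were the lactate transporter Slc16a1 and the HIF targets Ndrg1 and Ankrd37. Those of YAP-5SA were Aldoc, Tpi1, Pgk1, Pkm, Pdk1, Pfkfb3, Car12 and Egln3, and those of YAP-S127A were Slc2a3, Pfkp, Ldhb, Slc16a3, Pfkfb4 and P4ha1. Slc2a3 and Ldhb passed the low-count filter through YAP-S127A alone, and Car12 through the YAP groups alone. The filter thus favoured their place in these lists. For Tpi1, Pgk1, Pkm, Pdk1 and P4ha1, a call against 1 of the other groups did not hold under all alternatives. Nothing is read from the shares about a group. Members called lower than in both other groups numbered 10 in TAZ-S89A (17.2% of all genes), 5 in YAP-5SA (14.1%) and 7 in YAP-S127A (13.8%). Those of TAZ-S89A include Slc2a3, Ldhb and Car12. A needed call did not hold under all alternatives for Gpi1 and Pfkfb3 in TAZ-S89A, Epas1 in YAP-5SA and Tpi1 in YAP-S127A.

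**Figure D1:**
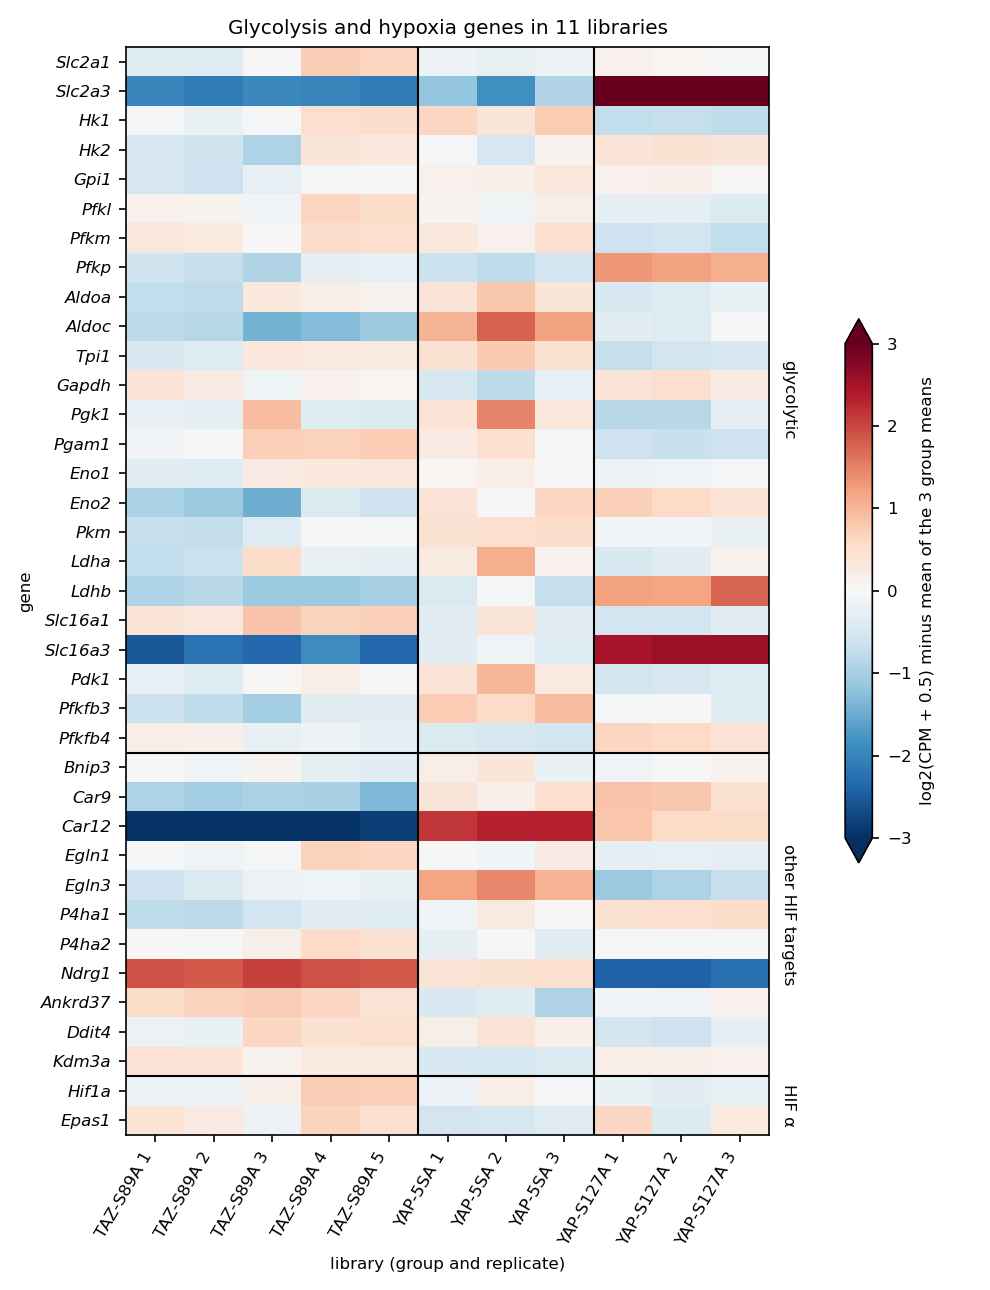
Colour gives log2(CPM + 0.5) of each gene in each library minus the mean of its 3 group means, for the 24 glycolytic genes, 11 other HIF targets and 2 HIF alpha subunits (rows) in 11 libraries (columns), and differences past 3 take the end colour. Slc2a3 and Slc16a3 are red in YAP-S127A alone, Car12 and Egln3 are reddest in YAP-5SA, and Ndrg1 runs from red in TAZ-S89A to blue in YAP-S127A.

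Levels per length were compared between genes in nRPKM, the authors' RPKM adjusted by a size factor per library. Averaged over the 11 libraries, Ldha (204 nRPKM), Aldoa (173), Pkm (122) and Tpi1 (104) were the highest members, followed by Eno1 (35.1). Since the groups differ in size, this average gives TAZ-S89A the most weight. The lowest were Epas1 (0.0800), Ldhb (0.473) and Car9 (0.736). The deposited counts are of reads that align uniquely and several glycolytic genes share sequence with other genes. Of the 50-base windows of the Gapdh transcript, 82.5% also occur in transcripts of other genes, and the shares were 72.2% for Eno1, 68.0% for Pgk1, 48.9% for Bnip3, 41.5% for Pgam1, 30.5% for Pkm, 27.0% for Ldhb, 19.6% for Gpi1, 16.6% for Ldha, 13.5% for Aldoa and 7.51% for Tpi1. The other 26 members had shares under 1%. Levels of the genes with large shares may be understated by an unknown amount, and comparisons of them between groups rest on their unique stretches. Gapdh, often used as a reference transcript, averaged only 7.70 nRPKM.

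**Figure D2:**
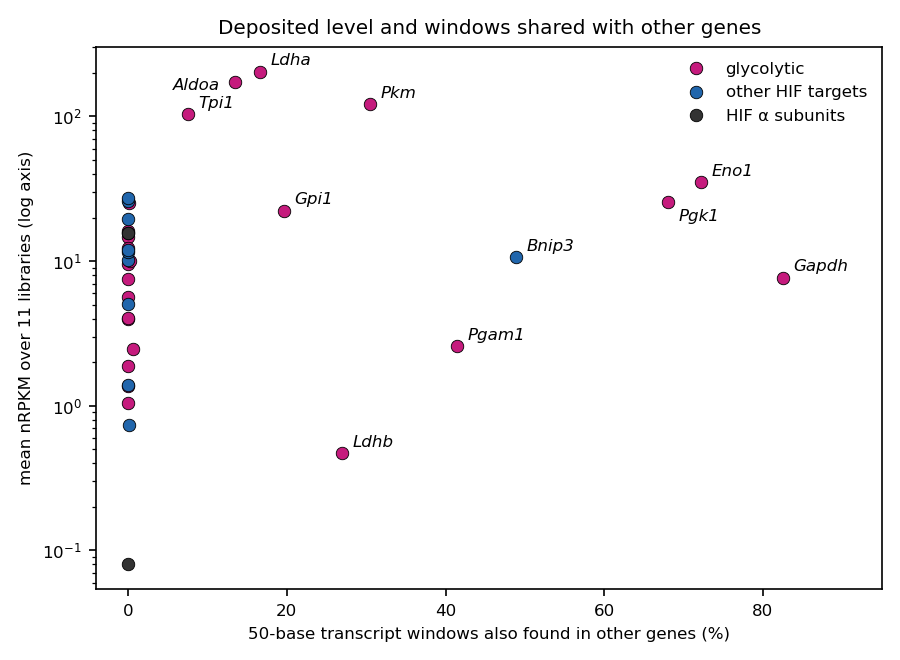
Mean nRPKM over 11 libraries (log axis) is plotted against the share of 50-base transcript windows that also occur in other genes, one point per member. Gapdh, Eno1 and Pgk1 lie far to the right at 68.0% to 82.5%. Of the members with the highest levels, Ldha, Aldoa and Tpi1 have shares of 16.6% or less, and Pkm has 30.5%.

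The glucose transporters differed in opposite degrees. Slc2a3 (GLUT3, a high-affinity glucose transporter; Entrez gene 20527, chromosome 6, 122727809 to 122802363 on GRCm38) stood at 0.0472, 0, 0.0580, 0.0408 and 0 CPM in the TAZ-S89A libraries, at 0.454, 0.0956 and 0.654 CPM in the YAP-5SA libraries and at 22.8, 22.5 and 18.3 CPM in the YAP-S127A libraries. Slc2a3 was far higher in YAP-S127A than in the other groups, and no value of one group fell within another group's range. Even in YAP-S127A it averaged 3.77 nRPKM, against 14.3 for Slc2a1. The log2 fold change was -3.62 (SE 0.70, adjusted p = 0.000500) in TAZ-S89A over YAP-5SA, -9.34 (SE 0.46, adjusted p = 8.49e-10) over YAP-S127A, and -5.72 (SE 0.41, adjusted p = 5.48e-08) in YAP-5SA over YAP-S127A. The first of these rests on 5 counts in all TAZ-S89A libraries and ranged from -4.42 to -3.05 over the alternatives. Slc2a1 (GLUT1, the broadly expressed basal transporter) was not called in any comparison, and its libraries ran from 34.3 to 75.2 CPM in TAZ-S89A, from 38.6 to 40.7 in YAP-5SA and from 43.9 to 49.2 in YAP-S127A. Within TAZ-S89A it averaged 72.9 CPM in the second ID series and 38.4 in the others.

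Of the hexokinases, which trap glucose in the cell as its 6-phosphate, the housekeeping isoform Hk1 was low in YAP-S127A. Hk1 stood at 54.6, 49.4, 54.7, 81.7 and 82.9 CPM in TAZ-S89A, at 88.5, 73.6 and 96.9 CPM in YAP-5SA and at 34.2, 35.1 and 33.6 CPM in YAP-S127A. All 8 libraries of TAZ-S89A and YAP-5SA lay above the 3 of YAP-S127A, while TAZ-S89A and YAP-5SA overlapped. Its log2 fold change was 0.91 (SE 0.19, adjusted p = 0.000913) in TAZ-S89A over YAP-S127A and 1.33 (SE 0.21, adjusted p = 9.13e-05) in YAP-5SA over YAP-S127A. Hk1 was not called in TAZ-S89A over YAP-5SA (-0.42, SE 0.18, adjusted p = 0.0604), but was called there without the second ID series (-0.69, adjusted p = 0.000422), without TAZ-S89A replicate 4 or 5 or without YAP-5SA replicate 2 (range 9.68e-05 to 0.202 over 22 alternatives). Hk1 overlaps Hk1os, and the strand setting of the counting is not given, so its counts are uncertain. Hk2, the inducible isoform of many tumours, ran from 20 to 49.3 CPM in TAZ-S89A, from 26.9 to 41.5 in YAP-5SA and from 49.2 to 52.7 in YAP-S127A and was not called. Without the second ID series, which averaged 48.6 CPM against 24.1 in the other TAZ-S89A libraries, Hk2 was called lower in TAZ-S89A than in YAP-S127A (-1.10, adjusted p = 0.000109) and than in YAP-5SA (-0.53, adjusted p = 0.0134), and lower in YAP-5SA than in YAP-S127A (-0.56, adjusted p = 0.00930). The call against YAP-S127A also appeared without TAZ-S89A replicate 4 (adjusted p = 0.0197) or 5 (0.0294), in a range of 4.58e-05 to 0.19 over the alternatives.

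Phosphoglucose isomerase Gpi1, the next step, ran from 51.5 to 77.9 CPM in TAZ-S89A, from 87.2 to 99.1 in YAP-5SA and from 82.3 to 88.5 in YAP-S127A. It was called lower in TAZ-S89A than in YAP-5SA (-0.47, SE 0.15, adjusted p = 0.0140) and than in YAP-S127A (-0.39, SE 0.15, adjusted p = 0.0379). The call against YAP-5SA was lost without YAP-5SA replicate 3 (adjusted p = 0.0587), and that against YAP-S127A without TAZ-S89A replicate 1, 2 or 3, YAP-5SA replicate 1 or any YAP-S127A replicate (adjusted p up to 0.107). With each close TAZ-S89A pair merged into 1 library, both calls of Gpi1 were lost (adjusted p = 0.0543 and 0.131).

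Phosphofructokinase, the committed step, changed in its subunits. The platelet-type subunit Pfkp (Entrez gene 56421, chromosome 13, 6579874 to 6649060) stood at 31.7, 29.9, 25.6, 40.1 and 40.9 CPM in TAZ-S89A, at 30.5, 28.4 and 32.3 CPM in YAP-5SA and at 119, 113 and 104 CPM in YAP-S127A. TAZ-S89A and YAP-5SA overlapped, and YAP-S127A lay far above both. Its log2 fold change was -1.74 (SE 0.15, adjusted p = 2.87e-07) in TAZ-S89A over YAP-S127A and -1.88 (SE 0.18, adjusted p = 7.93e-07) in YAP-5SA over YAP-S127A. The muscle-type subunit Pfkm went the other way, at 58.1, 56.3, 45.4, 66.4 and 64.9 CPM in TAZ-S89A, at 57.1, 49.7 and 63.8 CPM in YAP-5SA and 29.5, 30.2 and 27.2 CPM in YAP-S127A. Here every YAP-S127A library was below every other library, at log2 fold changes of 1.01 (SE 0.14, adjusted p = 4.20e-05) for TAZ-S89A and 0.97 (SE 0.16, adjusted p = 0.000125) for YAP-5SA over it. The liver-type subunit Pfkl ran from 102 to 168 CPM in TAZ-S89A, from 98.2 to 122 in YAP-5SA and from 81.3 to 89.7 in YAP-S127A. It was called higher in TAZ-S89A than in YAP-S127A (0.61, SE 0.18, adjusted p = 0.00974). Pfkp overlaps Pitrm1 and Pfkm overlaps Senp1, so these counts are uncertain in the same way.

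Among the enzymes that make and break fructose 2,6-bisphosphate, the activator of phosphofructokinase, Pfkfb3 was highest in YAP-5SA and Pfkfb4 in YAP-S127A. Of their paralogs outside the 37 genes, Pfkfb2 was called higher in TAZ-S89A than in YAP-5SA (0.55, adjusted p = 0.0267) and than in YAP-S127A (0.48, adjusted p = 0.0493), and Pfkfb1 was not called. Pfkfb3, the isoform with the strongest kinase activity, stood at 11.9, 10.9, 8.90, 15.1 and 14.7 CPM in TAZ-S89A, at 32.4, 28.1 and 35.9 CPM in YAP-5SA and at 18.3, 18.8 and 14.4 CPM in YAP-S127A. YAP-5SA was above both other groups without overlap, at -1.39 (SE 0.17, adjusted p = 8.87e-06) for TAZ-S89A over YAP-5SA and 0.91 (SE 0.20, adjusted p = 0.00134) for YAP-5SA over YAP-S127A. TAZ-S89A and YAP-S127A overlapped, and the call between them (-0.48, SE 0.17, adjusted p = 0.0292) was lost without TAZ-S89A replicate 1, 2 or 3 or YAP-S127A replicate 1 or 2 (adjusted p up to 0.114) and with the TAZ-S89A pairs merged (0.0611). Pfkfb4 stood at 10.9, 10.6, 8.09, 8.52 and 7.81 CPM in TAZ-S89A, at 6.87, 6.53 and 6.37 CPM in YAP-5SA and at 15.1, 14.4 and 13.0 CPM in YAP-S127A. The 3 groups did not overlap, and the differences were 0.48 (SE 0.15, adjusted p = 0.0119) in TAZ-S89A over YAP-5SA, -0.62 (SE 0.14, adjusted p = 0.00189) over YAP-S127A and -1.11 (SE 0.16, adjusted p = 5.57e-05) in YAP-5SA over YAP-S127A.

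**Figure D3:**
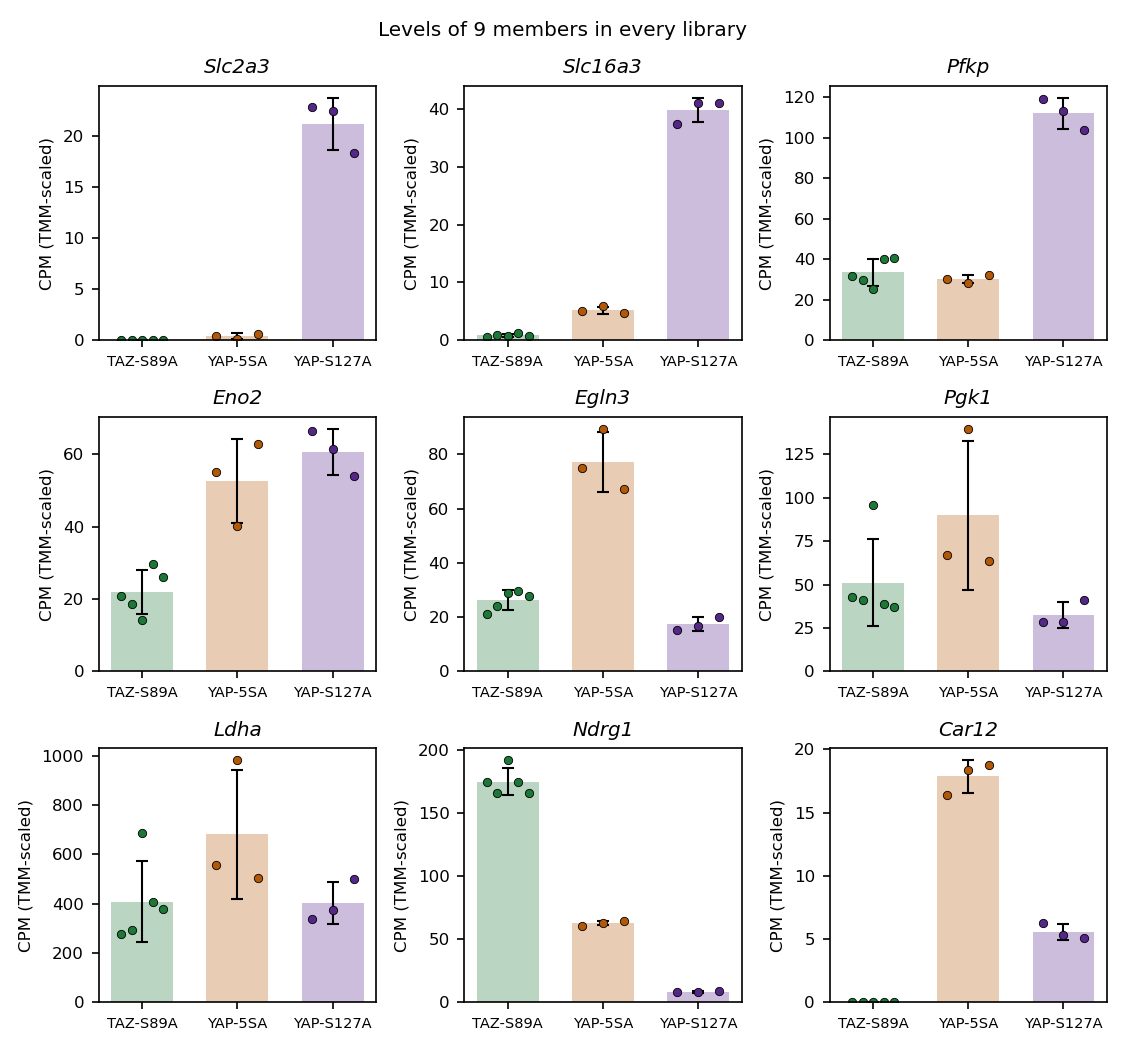
CPM on the TMM scale of 9 members in every library (points), with group means (bars) and SD (lines), for TAZ-S89A (n = 5), YAP-5SA (n = 3) and YAP-S127A (n = 3). Slc2a3, Slc16a3 and Pfkp stand apart in YAP-S127A, Egln3 and Car12 in YAP-5SA and Ndrg1 in TAZ-S89A, and in Pgk1 and Ldha a single library of TAZ-S89A and of YAP-5SA lies far above its group.

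Among the enzymes that act on triose phosphates, YAP-5SA held the highest levels of several. Aldolase A (Aldoa) stood at 238, 231, 495, 444 and 425 CPM in TAZ-S89A, at 516, 692 and 505 CPM in YAP-5SA and at 288, 304 and 346 CPM in YAP-S127A. YAP-5SA lay above every library of both other groups, which overlapped. The difference from YAP-S127A was called (0.87, SE 0.30, adjusted p = 0.0249), but not without YAP-5SA replicate 2 (0.70, adjusted p = 0.0917) or YAP-S127A replicate 1 (0.0834) or 2 (0.0736). TAZ-S89A over YAP-5SA was not called (-0.64, SE 0.26, adjusted p = 0.0511). Leaving out TAZ-S89A replicate 3 (0.0294) or 4 (0.0369) gave a call, in a range of 0.0116 to 0.196 over the alternatives. Its brain-type paralog Aldoc stood at 1.89, 1.78, 1.04, 1.18 and 1.42 CPM in TAZ-S89A, at 7.81, 13.5 and 8.91 CPM in YAP-5SA and at 2.81, 2.62 and 3.56 CPM in YAP-S127A. The 3 groups were separate, at -2.76 (SE 0.23, adjusted p = 1.62e-07) for TAZ-S89A over YAP-5SA, -1.01 (SE 0.24, adjusted p = 0.00247) over YAP-S127A and 1.75 (SE 0.26, adjusted p = 5.71e-05) for YAP-5SA over YAP-S127A.

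Triose phosphate isomerase Tpi1 stood at 138, 145, 239.5, 231 and 232 CPM in TAZ-S89A, at 264, 327 and 263 CPM in YAP-5SA and at 119, 128 and 139 CPM in YAP-S127A. YAP-5SA was above all other libraries, and its call over YAP-S127A (1.14, SE 0.24, adjusted p = 0.00104) held under all alternatives. The call of TAZ-S89A below YAP-5SA (-0.53, SE 0.21, adjusted p = 0.0413) was lost without TAZ-S89A replicate 1 or 2 or any of the 6 YAP libraries (adjusted p up to 0.150) and with the TAZ-S89A pairs merged (-0.44, adjusted p = 0.121). That of TAZ-S89A above YAP-S127A (0.61, SE 0.21, adjusted p = 0.0256), whose libraries overlap, was lost without any YAP-S127A library (up to 0.0973). Tpi1 overlaps Spsb2.

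Glyceraldehyde 3-phosphate dehydrogenase Gapdh was lowest in YAP-5SA, opposite to its neighbours in the pathway. It stood at 15.3, 13.8, 10.6, 12.7 and 12.2 CPM in TAZ-S89A, at 8.15, 6.53 and 9.78 CPM in YAP-5SA and at 15.5, 16.7 and 13.6 CPM in YAP-S127A. YAP-5SA did not overlap with either other group, at 0.67 (SE 0.16, adjusted p = 0.00287) for TAZ-S89A over YAP-5SA and -0.90 (SE 0.18, adjusted p = 0.000678) for YAP-5SA over YAP-S127A. Since 222 other genes share windows of its transcript, this is a statement about the few unique stretches of Gapdh and not about its mRNA as a whole.

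Phosphoglycerate kinase Pgk1 and lactate dehydrogenase A, both classical HIF targets, varied between libraries of the same group. Pgk1 stood at 42.6, 40.9, 95.9, 39.0 and 36.9 CPM in TAZ-S89A, at 66.8, 139.6 and 63.4 CPM in YAP-5SA and at 28.2, 28.2 and 41.3 CPM in YAP-S127A. TAZ-S89A replicate 3 was 2.39 times, and YAP-5SA replicate 2 was 2.14 times, the mean of the other libraries of its group, these ratios being of CPM + 0.5. YAP-S127A replicate 3 was 1.46 times the mean of its group's others. Pgk1 was called higher in YAP-5SA than in YAP-S127A (1.47, SE 0.38, adjusted p = 0.00493). The call of TAZ-S89A below YAP-5SA (-0.82, SE 0.33, adjusted p = 0.0464) was lost without YAP-5SA replicate 2 (-0.35, adjusted p = 0.402), as it was without TAZ-S89A replicate 1, 2, 4 or 5 or YAP-S127A replicate 1 or 2 and with the TAZ-S89A pairs merged (-0.61, adjusted p = 0.155). With the pairs merged Pgk1 was instead called higher in TAZ-S89A than in YAP-S127A (0.88, adjusted p = 0.0457).

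Ldha stood at 277, 295, 685, 408 and 379.9 CPM in TAZ-S89A, at 558, 982 and 505 CPM in YAP-5SA and at 339, 373 and 499 CPM in YAP-S127A. The same 2 libraries were high, at 2.01 times the rest of TAZ-S89A and 1.85 times the rest of YAP-5SA, and YAP-S127A replicate 3 was at 1.40 times the rest of its group. In no comparison was Ldha called, at -0.74 (SE 0.31, adjusted p = 0.0555) in TAZ-S89A over YAP-5SA, 0.02 (SE 0.31, adjusted p = 0.966) over YAP-S127A and 0.75 (SE 0.35, adjusted p = 0.0852) in YAP-5SA over YAP-S127A. Without TAZ-S89A replicate 3 it was called lower in TAZ-S89A than in YAP-5SA (-0.97, adjusted p = 0.00614) and higher in YAP-5SA than in YAP-S127A (0.78, adjusted p = 0.0310), and the first of these also without YAP-5SA replicate 3 (0.0412). YAP-5SA replicate 2 held at least 1.5 times the mean of its group's other libraries in 5 of 24 glycolytic genes (Aldoc, Pgk1, Ldha, Slc16a1 and Pdk1) and in none of the 11 other HIF targets, against 6.58% of all genes. TAZ-S89A replicate 3 did so in 2 of the 24, against 11.9% of all genes. Both libraries were singled out after their values were seen.

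Phosphoglycerate mutase Pgam1 stood at 4.72, 5.02, 8.56, 8.52 and 8.98 CPM in TAZ-S89A, at 6.04, 7.24 and 4.82 CPM in YAP-5SA and at 3.14, 3.02 and 3.11 CPM in YAP-S127A. YAP-S127A was below every other library, at 1.20 (SE 0.24, adjusted p = 0.000852) for TAZ-S89A and 0.96 (SE 0.26, adjusted p = 0.00685) for YAP-5SA over it. Enolase 1 (Eno1) stood at 68.7, 67.2, 104, 109.8 and 111 CPM in TAZ-S89A, at 90.7, 97.4 and 88.7 CPM in YAP-5SA and at 78.6, 80.3 and 83.3 CPM in YAP-S127A, and was not called in any comparison. Its neuronal-type paralog Eno2 stood at 20.9, 18.7, 14.3, 29.8 and 26.1 CPM in TAZ-S89A, at 55.1, 40.1 and 62.9 CPM in YAP-5SA and at 66.6, 61.4 and 54.0 CPM in YAP-S127A. All 5 TAZ-S89A libraries lay below the 6 YAP libraries, at -1.27 (SE 0.21, adjusted p = 0.000134) over YAP-5SA and -1.47 (SE 0.21, adjusted p = 3.82e-05) over YAP-S127A, and the YAP groups overlapped.

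Pyruvate kinase M (Pkm) stood at 293, 290.1, 364, 473 and 459.5 CPM in TAZ-S89A, at 651, 667 and 678 CPM in YAP-5SA and at 447, 448 and 411 CPM in YAP-S127A. YAP-5SA was above all other libraries, and TAZ-S89A was called lower than it (-0.82, SE 0.20, adjusted p = 0.00318). The call of YAP-5SA over YAP-S127A (0.61, SE 0.23, adjusted p = 0.0378) was lost without any of the 6 YAP libraries (adjusted p up to 0.110). Gene-level counts do not separate the M1 and M2 splice forms.

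Genes of lactate handling differed between the groups. Ldhb, the subunit that favours lactate oxidation, stood at 0.0708, 0.111, 0, 0 and 0.0418 CPM in TAZ-S89A, at 0.294, 0.550 and 0.169 CPM in YAP-5SA and at 2.01, 1.97 and 3.11 CPM in YAP-S127A. The order of the 3 groups had no overlap, at -5.41 (SE 0.51, adjusted p = 6.24e-07) for TAZ-S89A over YAP-S127A and -2.79 (SE 0.45, adjusted p = 0.000136) for YAP-5SA over YAP-S127A. TAZ-S89A over YAP-5SA was -2.63 (SE 0.63, adjusted p = 0.00266), in a range of -3.28 to -1.73 over the alternatives at these few counts. The transporter Slc16a3 (MCT4, which exports lactate; Entrez gene 80879, chromosome 11, 120948484 to 120959000) stood at 0.661, 0.981, 0.841, 1.35 and 0.835 CPM in TAZ-S89A, at 5, 5.90 and 4.77 CPM in YAP-5SA and at 37.4, 40.9 and 41.0 CPM in YAP-S127A. These 3 ranges lay far from each other, at -2.50 (SE 0.18, adjusted p = 3.56e-08) for TAZ-S89A over YAP-5SA, -5.43 (SE 0.18, adjusted p = 1.66e-11) over YAP-S127A and -2.93 (SE 0.19, adjusted p = 1.89e-08) for YAP-5SA over YAP-S127A. Slc16a3 overlaps Csnk1d in the annotation.

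Slc16a1 (MCT1, which carries lactate both ways) had the opposite order. It stood at 98.9, 97.1, 139, 121 and 125 CPM in TAZ-S89A, at 61.0, 98.1 and 60 CPM in YAP-5SA and at 50.6, 51.1 and 59.8 CPM in YAP-S127A. TAZ-S89A overlapped with YAP-5SA through YAP-5SA replicate 2 alone. The log2 fold change was 0.67 (SE 0.19, adjusted p = 0.00724) in TAZ-S89A over YAP-5SA and 1.11 (SE 0.19, adjusted p = 0.000218) over YAP-S127A. YAP-5SA over YAP-S127A was not called (0.44, SE 0.21, adjusted p = 0.0843), and without YAP-5SA replicate 3 it was (0.57, adjusted p = 0.0493, in a range up to 0.453 without single libraries).

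Pyruvate dehydrogenase kinase Pdk1, which holds pyruvate back from mitochondria, stood at 44.7, 41.0, 54.3, 60.3 and 52.7 CPM in TAZ-S89A, at 70.0, 106 and 64.7 CPM in YAP-5SA and at 36.0, 37.1 and 41.3 CPM in YAP-S127A. YAP-5SA was above both other groups without overlap, at -0.67 (SE 0.17, adjusted p = 0.00403) for TAZ-S89A over YAP-5SA and 1.08 (SE 0.20, adjusted p = 0.000358) for YAP-5SA over YAP-S127A. The first call was lost without both TAZ-S89A replicate 3 and YAP-5SA replicate 2 (-0.39, adjusted p = 0.0650). TAZ-S89A over YAP-S127A was not called (0.41, SE 0.18, adjusted p = 0.0621). Leaving out TAZ-S89A replicate 2 (0.0363) or YAP-5SA replicate 2 (0.0215) gave a call, in a range of 0.0215 to 0.204 over the alternatives.

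Shares of paralogs were taken over the members alone, so relatives outside the 37 genes, such as Slc2a2, Eno3, Pfkfb1 and Pfkfb2, are left out of them. Of the summed nRPKM of Slc16a1 and Slc16a3, Slc16a1 made up 98.6 ± 0.383% in TAZ-S89A, 88.8 ± 1.63% in YAP-5SA and 44.0 ± 1.95% in YAP-S127A (SD, n = 5, 3 and 3). Slc2a1 made up 100 ± 0.0380%, 99.4 ± 0.396% and 79.2 ± 1.14% of the sum of Slc2a1 and Slc2a3, in the same order of groups. Hk1 accounted for 67.8 ± 4.13%, 72.5 ± 1.70% and 41.8 ± 0.328% of the sum of Hk1 and Hk2, and Pfkp for 5.35 ± 0.139%, 5.46 ± 0.278% and 23.8 ± 0.624% of the sum of Pfkl, Pfkm and Pfkp. In each of these 4 sums the YAP-S127A libraries lay apart from all others, with more of the level in Slc16a3, Slc2a3, Hk2 and Pfkp. The size of the Pfkp share is uncertain. In YAP-S127A Pfkp averaged 112 CPM but 8.21 nRPKM, against 86.7 CPM and 19.1 nRPKM for Pfkl. Their transcripts, of 4145 and 3730 bases, differ little in length. The gene length behind the nRPKM of Pfkp was not checked, so its share may be understated in every group. Eno1, whose level may be understated through shared windows, made up 86.9 ± 3.16%, 73.9 ± 5.22% and 68.2 ± 2.91% of the sum of Eno1 and Eno2, and Pfkfb3 54.8 ± 7.20%, 81.6 ± 2.01% and 52.5 ± 2.05% of that of Pfkfb3 and Pfkfb4. Aldoa stayed at or above 98.2% of its sum with Aldoc, and Ldha at or above 99.2% of its sum with Ldhb, in every group mean. An exact two-sided permutation test over libraries can reach p = 0.0357 at 5 against 3 and p = 0.1 at 3 against 3. None of the 42 tests of 14 shares passed after Benjamini-Hochberg adjustment, the smallest adjusted p of this permutation test being 0.0682. With those smallest p-values and 42 tests, no adjusted p under 0.05 could be reached. The group sizes fixed this outcome, so nothing is read from it about the shares.

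**Figure D4:**
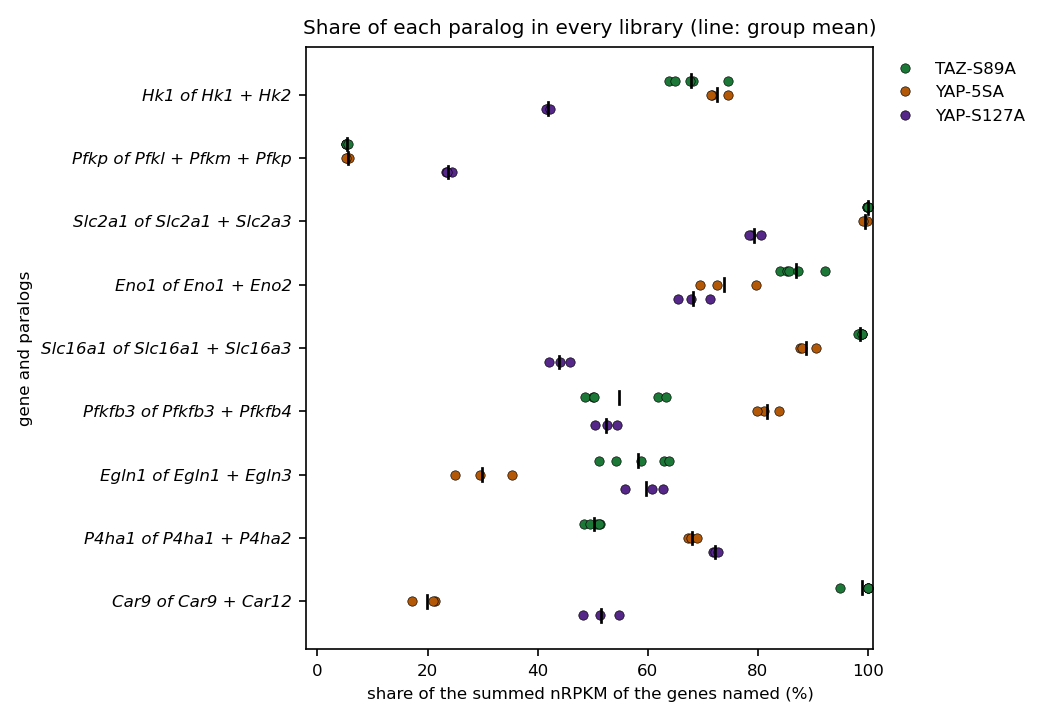
Share of a paralog in the summed nRPKM of the genes named on each row, in percent, per library (points) with the group mean (line). Slc16a1 spans 98.6% in TAZ-S89A to 44.0% in YAP-S127A, Egln1 is lowest in YAP-5SA at 29.9%, and Car9 runs from 99.0% in TAZ-S89A to 19.8% in YAP-5SA.

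The other HIF targets did not share an order of groups. Among the oxygen sensors, Egln3, a hydroxylase that HIF itself induces (Entrez gene 112407, chromosome 12, 54178981 to 54203874), stood at 21.1, 24.0, 28.9, 29.8 and 27.9 CPM in TAZ-S89A, at 75.0, 89.3 and 67.4 CPM in YAP-5SA and at 15.1, 16.9 and 20.1 CPM in YAP-S127A. Every YAP-5SA library lay far above all others, and the 3 groups did not overlap. The log2 fold change was -1.55 (SE 0.15, adjusted p = 5.54e-07) in TAZ-S89A over YAP-5SA, 0.60 (SE 0.15, adjusted p = 0.00407) over YAP-S127A and 2.15 (SE 0.17, adjusted p = 1.68e-07) in YAP-5SA over YAP-S127A. Egln1, the main sensor in normal oxygen, ran from 38.2 to 68.2 CPM in TAZ-S89A, from 39.8 to 49.5 in YAP-5SA and from 34.1 to 35.0 in YAP-S127A. Its call of TAZ-S89A above YAP-S127A (0.56, SE 0.20, adjusted p = 0.0292) was lost without the second ID series (0.19, adjusted p = 0.166), TAZ-S89A replicate 4 or 5, or any YAP-S127A library. Egln1 made up 58.2 ± 5.48% of the pair's nRPKM in TAZ-S89A, 29.9 ± 5.24% in YAP-5SA and 59.7 ± 3.49% in YAP-S127A (SD).

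The carbonic anhydrases, membrane enzymes that help tumour cells control the pH outside them, were both low in TAZ-S89A. Car12 (Entrez gene 76459, chromosome 9, 66712296 to 66766845) had no count in TAZ-S89A replicates 1 to 4 and a single count in replicate 5, against 16.4, 18.4 and 18.8 CPM in YAP-5SA and 6.29, 5.32 and 5.11 CPM in YAP-S127A. Pooled over the group, that 1 count puts YAP-5SA 3048 times higher (95% exact interval 547 to 120450.0) and YAP-S127A 960.0 times higher (172 to 37977), both intervals covering counting error only. Between the YAP groups Car12 was 1.68 higher in YAP-5SA on the log2 scale (SE 0.19, adjusted p = 5.97e-06). Car9 stood at 0.779, 0.691, 0.754, 0.734 and 0.459 CPM in TAZ-S89A, at 2.62, 2.22 and 2.93 CPM in YAP-5SA and at 3.90, 3.77 and 2.81 CPM in YAP-S127A. TAZ-S89A was below all YAP libraries, at -1.90 (SE 0.21, adjusted p = 2.73e-06) over YAP-5SA and -2.33 (SE 0.21, adjusted p = 3.42e-07) over YAP-S127A, while the YAP groups overlapped and were not called apart (-0.43, SE 0.21, adjusted p = 0.103). Car9 overlaps Tpm2 and Arhgef39, and its few counts are uncertain where strand is not known.

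Ndrg1, a gene of stress and differentiation that hypoxia induces (Entrez gene 17988, chromosome 15, 66929318 to 66969641), was higher in TAZ-S89A than in both YAP groups. It stood at 175, 166, 192, 175 and 166 CPM in TAZ-S89A, at 60.9, 63.0 and 64.7 CPM in YAP-5SA and at 8.16, 8.14 and 9.36 CPM in YAP-S127A. The groups fell into 3 narrow, distant ranges, at 1.48 (SE 0.12, adjusted p = 1.87e-07) for TAZ-S89A over YAP-5SA, 4.35 (SE 0.15, adjusted p = 1.74e-11) over YAP-S127A and 2.88 (SE 0.14, adjusted p = 1.36e-09) for YAP-5SA over YAP-S127A. Its order was thus the reverse of that of Slc16a3 and Slc2a3. Ankrd37, an ankyrin repeat gene used as a hypoxia marker, stood at 11.8, 13.1, 13.5, 12.4 and 10.6 CPM in TAZ-S89A, at 5.59, 6 and 3.99 CPM in YAP-5SA and at 7.51, 7.32 and 8.72 CPM in YAP-S127A. It was highest in TAZ-S89A and lowest in YAP-5SA without overlap, at 1.24 (SE 0.16, adjusted p = 1.36e-05) over YAP-5SA and 0.65 (SE 0.16, adjusted p = 0.00271) over YAP-S127A, and -0.60 (SE 0.17, adjusted p = 0.00964) for YAP-5SA over YAP-S127A. Ankrd37 overlaps Ufsp2.

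The prolyl hydroxylases of collagen split as well. P4ha1 stood at 79.6, 78.6, 90.0, 107 and 103 CPM in TAZ-S89A, at 128, 162 and 134 CPM in YAP-5SA and at 186, 193 and 198 CPM in YAP-S127A. Levels were lowest in TAZ-S89A and highest in YAP-S127A without overlap, at -0.62 (SE 0.15, adjusted p = 0.00258) for TAZ-S89A over YAP-5SA and -1.07 (SE 0.15, adjusted p = 3.12e-05) over YAP-S127A. The call of YAP-5SA below YAP-S127A (-0.45, SE 0.17, adjusted p = 0.0382) was lost without TAZ-S89A replicate 3, 4 or 5, YAP-5SA replicate 1 or 3 or any YAP-S127A library (adjusted p up to 0.136) and with the TAZ-S89A pairs merged (0.0726). P4ha2 ran from 42.4 to 64.3 CPM in TAZ-S89A, from 33.9 to 43.1 in YAP-5SA and from 40.9 to 42.0 in YAP-S127A. It was called higher in TAZ-S89A than in YAP-5SA (0.46, SE 0.15, adjusted p = 0.0208), but not without TAZ-S89A replicate 4 (0.0518) or YAP-5SA replicate 1 (0.0838) or 3 (0.0896). P4ha1 made up 50.3 ± 1.21% of the pair's nRPKM in TAZ-S89A, 68.0 ± 0.843% in YAP-5SA and 72.3 ± 0.375% in YAP-S127A (SD).

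Of the remaining targets, the mTORC1 inhibitor Ddit4 ran from 32.5 to 57.9 CPM in TAZ-S89A, from 41.5 to 49.8 in YAP-5SA and from 24.1 to 31.1 in YAP-S127A. It was called higher in TAZ-S89A (0.76, SE 0.20, adjusted p = 0.00479) and in YAP-5SA (0.73, SE 0.22, adjusted p = 0.0110) than in YAP-S127A. The histone demethylase Kdm3a was low in YAP-5SA, at 60 to 64.0 CPM, against 93.5 to 117 in TAZ-S89A and 94.8 to 99.7 in YAP-S127A. Its differences were 0.79 (SE 0.12, adjusted p = 7.77e-05) for TAZ-S89A over YAP-5SA and -0.64 (SE 0.13, adjusted p = 0.00101) for YAP-5SA over YAP-S127A. The mitophagy gene Bnip3 ran from 18.5 to 24.7 CPM in TAZ-S89A, from 20 to 30.0 in YAP-5SA and from 21.6 to 24.9 in YAP-S127A and was not called, except in TAZ-S89A below YAP-5SA without YAP-5SA replicate 3 (-0.39, adjusted p = 0.0393, in a range up to 0.580 without single libraries).

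**Figure D5:**
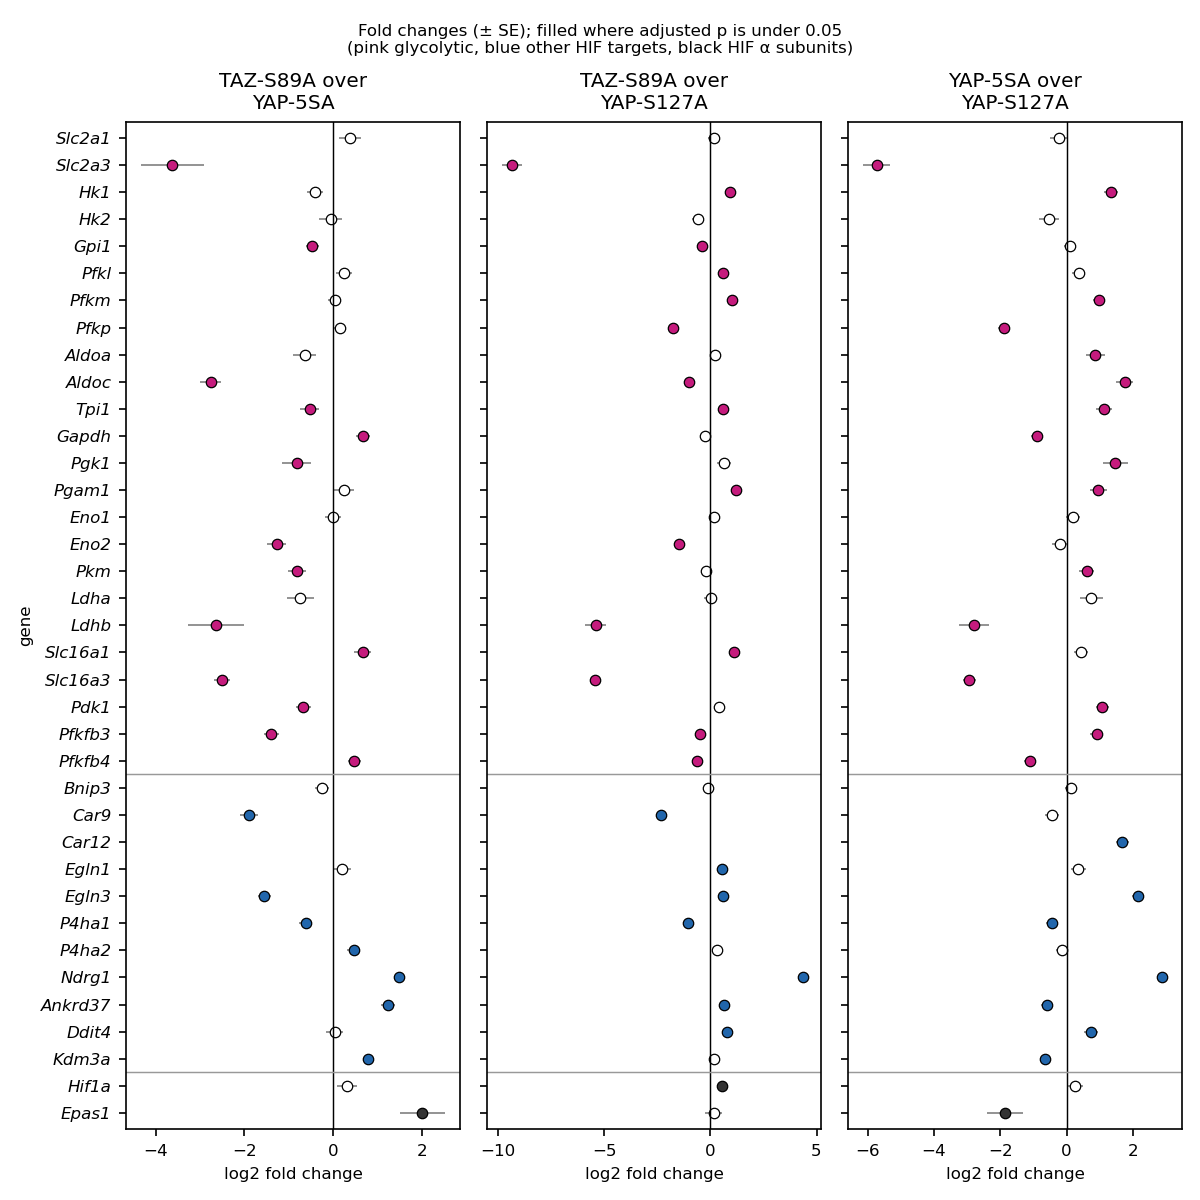
Log2 fold change (points) and SE (lines) of each member in 3 comparisons, filled where the adjusted p is under 0.05; the x axes differ in range. Car12 was called in both TAZ-S89A comparisons but is left out of those panels, because its fitted fold rests on 1 TAZ-S89A count. Of the points shown, the largest differences belong to Slc2a3, Ldhb, Slc16a3 and Ndrg1 on opposite sides of 0.

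The transcripts of the HIF alpha subunits differed little or were rare. Hif1a stood at 74.8, 76.9, 94.2, 143 and 139 CPM in TAZ-S89A, at 75.2, 96.3 and 83.5 CPM in YAP-5SA and at 74.1, 68.1 and 72.5 CPM in YAP-S127A. The 2 TAZ-S89A libraries of the second ID series stood above all others, and TAZ-S89A replicates 1 to 3 overlapped with YAP-5SA. Every YAP-S127A library lay below both other groups, but narrowly, at 74.1 CPM or less against 74.8 or more. TAZ-S89A was called higher than YAP-S127A (0.56, SE 0.22, adjusted p = 0.0416), but not without that ID series (0.18, adjusted p = 0.266), without TAZ-S89A replicate 4 or 5, without YAP-5SA replicate 1 or 3 or without any YAP-S127A library. Hif1a overlaps Gm15283. Epas1, which encodes HIF-2 alpha, stood at 0.732, 0.624, 0.319, 0.979 and 0.793 CPM in TAZ-S89A, at 0.134, 0.143 and 0.218 CPM in YAP-5SA and at 0.936, 0.197 and 0.639 CPM in YAP-S127A. With at most 42 counts in any library, it was lowest in YAP-5SA, at 2.01 (SE 0.51, adjusted p = 0.00383) for TAZ-S89A over YAP-5SA and -1.86 (SE 0.55, adjusted p = 0.0107) for YAP-5SA over YAP-S127A. The second of these calls was lost without YAP-S127A replicate 1 (-1.35, adjusted p = 0.0776), and YAP-S127A replicate 2 lay within the range of YAP-5SA. Hif1a made up at least 99.3% of the summed nRPKM of both genes in each group mean.

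In TAZ-S89A the second ID series moved with these genes. Averaged over its 2 libraries, 6 of the 37 members reached at least 1.5 times their mean in TAZ-S89A replicates 1 to 3, as ratios of CPM + 0.5 (16.2%, against 5.02% of all genes), namely Slc2a1 (1.89), Hk1 (1.55), Hk2 (1.99), Eno2 (1.54), Egln1 (1.68) and Hif1a (1.71). Pgk1 alone fell to 1/1.5 or less, at 0.638, against 14.3% of all genes. That ratio rests on replicate 3, at 95.9 CPM. Replicates 1 and 2, at 42.6 and 40.9 CPM, lay close to the 39.0 and 36.9 CPM of the second series. Without the second ID series some further calls changed: Pkm was called lower in TAZ-S89A than in YAP-S127A (-0.48, adjusted p = 0.0115), and Pfkl (0.33, 0.0371) and Egln1 (0.32, 0.0292) higher and Car9 (-0.46, 0.0499) lower in YAP-5SA than in YAP-S127A. Lost without it were P4ha2 (0.27, adjusted p = 0.0629) and Pgk1 (-0.56, 0.192) in TAZ-S89A over YAP-5SA and Tpi1 (0.42, 0.0943) in TAZ-S89A over YAP-S127A. These 2 libraries are a close pair and the shallowest, and the series cannot be told apart from whatever else sets that pair off.

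Other genes of the same pathways were counted from lists, beside the shares of all genes called above (57.9%, 57.6% and 55.2% in the 3 comparisons), and nothing is read from the counts about a list as a whole. Of 36 further genes of glycolysis and glucose handling, 27 were tested, with 5 higher and 11 lower in TAZ-S89A than in YAP-5SA, 10 and 10 against YAP-S127A, and 14 and 3 in YAP-5SA against YAP-S127A. The hepatocyte glucose transporter Slc2a2 averaged 6.86 ± 1.65 CPM in TAZ-S89A, 0.428 ± 0.103 in YAP-5SA and 0.421 ± 0.176 in YAP-S127A (SD), so a paralog of Slc2a3 was highest where Slc2a3 was lowest. Muscle-type enolase Eno3 was at 59.2 ± 24.2, 418 ± 132 and 61.2 ± 7.31 CPM, mitochondrial lactate dehydrogenase Ldhd at 0.831 ± 0.189, 11.8 ± 0.881 and 1.76 ± 0.273 CPM, and glycerol phosphate dehydrogenase Gpd1 at 11.7 ± 4, 63.2 ± 4.35 and 5.13 ± 0.267 CPM, and each was called higher in YAP-5SA than in both other groups. Mitochondrial phosphoenolpyruvate carboxykinase Pck2 averaged 72.6 ± 14.9 CPM in TAZ-S89A, against 217 ± 2.96 CPM for YAP-S127A, and was called lower in TAZ-S89A (-1.58, SE 0.16).

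Of 8 tested genes of HIF control, 2 were higher and 1 lower in TAZ-S89A than in YAP-5SA, 3 and 1 against YAP-S127A, and 3 and 1 in YAP-5SA against YAP-S127A. Cited2, a competitor of HIF for its coactivator, averaged 261 ± 57.4 CPM in TAZ-S89A, 56 ± 2.49 in YAP-5SA and 77.0 ± 2.51 in YAP-S127A (SD), and was called higher in TAZ-S89A at 2.22 (SE 0.20) and 1.76 (SE 0.19). Of 37 tested further HIF targets, 11 were higher and 14 lower in TAZ-S89A than in YAP-5SA, 14 and 10 against YAP-S127A, and 17 and 9 in YAP-5SA against YAP-S127A. These too led in different groups. Vegfa, the angiogenic factor, averaged 197 ± 42.0 CPM in TAZ-S89A, against 48.4 ± 8.05 CPM for YAP-5SA (log2 fold change 2.02, SE 0.21), and was lower in TAZ-S89A than in YAP-S127A (-0.85, SE 0.19). The AMP deaminase Ampd3 was at 10 ± 3.52, 85.9 ± 11.6 and 8.32 ± 0.449 CPM in TAZ-S89A, YAP-5SA and YAP-S127A, and the lysyl oxidase Lox at 0.892 ± 0.268, 3.68 ± 0.288 and 149 ± 7.18 CPM. The stanniocalcin gene Stc1 was at 0.580 ± 0.523, 0.331 ± 0.115 and 6.31 ± 1.04 CPM. Adm, the vasodilator peptide gene, had 1 count in TAZ-S89A, as Car12 did, and was likewise called higher in YAP-5SA than in YAP-S127A (1.93, SE 0.16).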

How the data were processed

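PolyA RNA of 11 libraries from mouse liver cancer cell lines was analysed, grouped by the mutation the labels give. The deposited counts are of reads that align uniquely to each gene model, per the file headers. Beside them the authors deposited nRPKM, an RPKM adjusted by a size factor, per the file headers. GSNAP and GRCm38 are named in the submitters' processing notes; no source used here states the aligner version, the annotation release or the strand setting. Of 36528 gene IDs, 31049 matched a RefSeq gene ID, and the others hold 2.91% of counts. Counts were tested with edgeR 4.0.16 in R 4.3.3 (TMM factors, filterByExpr, robust quasi-likelihood fit over all 11 libraries), with Benjamini-Hochberg adjustment over 18224 genes and a threshold of 0.05. The fit was also run on simulated counts of independent libraries. These lacked the close pairs and the second ID series, so nothing is read from them about the p-values here. Shared windows come from GENCODE transcripts and overlapping genes from RefSeq gene coordinates, both on GRCm38. CPM is on the TMM scale and compares libraries, while nRPKM compares genes and gives paralog shares, which were tested with exact permutation tests in scipy 1.17.1. Alternatives used DESeq2 1.42.0, limma-voom in limma 3.58.1, other normalization factors, other filters, the sample ID series, merged pairs and each library left out. The members and lists were chosen with earlier results of these data known. Values in every library are given for members called at 1 or more on the absolute log2 scale, for Hif1a, Epas1 and Gapdh, and for the 6 members highest in nRPKM, and from each other list up to 3 called genes per comparison with the largest fold change were eligible to be named. Intervals and the floor of 3 counts cover counting error only, and total counts of 20071144 to 49159713 per library limit the precision of the rarest members.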

Additional observations from a re-analysis of the deposited data

Results flagged for a closer look

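In TAZ-S89A, the only group with enough libraries for such a check, each of the 37 genes was examined for a library far from the other 4, a criterion that chance meets in about 1 in 20 groups. It was met by 3 genes. Pgk1 stood at 95.9 CPM in replicate 3, the highest of the 5 TAZ-S89A libraries. Car9 stood at 0.459 CPM in replicate 5, the lowest of them. Car12 stood at 0.0418 CPM in replicate 5, which is its single count against none in the other libraries of that group.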

How the results depend on the processing

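Of the counts of calls and set medians under the alternatives, 189 values stayed close to their reported value and 12 moved. Of the fold changes of single members, 2226 kept direction and call, 109 lost and 50 gained the call, and 51 reversed. Counting calls of 1 or more on the absolute log2 scale left 12 members called in TAZ-S89A over YAP-5SA, 13 in TAZ-S89A over YAP-S127A and 14 in YAP-5SA over YAP-S127A. The glycolytic median of YAP-5SA over YAP-S127A ran from 0.28 to 0.45 without single libraries and was 0.29 without the 2 libraries high in Pgk1 and Ldha, an alternative chosen after seeing the data. The median of the other HIF targets in that comparison ran from -0.02 to 0.25 and was -0.01. With the ID series as a covariate and without its second part, that median was -0.14 and -0.12 in TAZ-S89A over YAP-5SA and 0.16 and 0.14 over YAP-S127A.

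In the same 2 settings, these fold changes of TAZ-S89A over YAP-5SA, none of them called, reversed: Slc2a1 (-0.06 and -0.04), Pfkm (-0.09 and -0.08), Pfkp (-0.06 and -0.05), Egln1 (-0.14 and -0.12), Ddit4 (-0.11 and -0.09) and Hif1a (-0.05 and -0.03). Over YAP-S127A, so did Slc2a1 (-0.29 and -0.30, called in the first at an edgeR adjusted p of 0.0489), Eno1 (-0.01 and -0.03) and Epas1 (-0.11 and -0.13). Eno1 over YAP-5SA, at 0 to 2 decimals, was 0.03 with RLE factors, DESeq2 or no filter, 0.07 with upper-quartile factors or merged pairs, and 0.05 with only the 2 groups or without the 2 libraries. Hk2 over YAP-5SA was 0.02 with upper-quartile factors, Ldha over YAP-S127A was -0.03 with limma-voom and -0.19 without the 2 libraries, and Bnip3 in YAP-5SA over YAP-S127A was -0.01 without them. Without single libraries the ranges were -0.22 to 0.13 for Hk2, -0.05 to 0.15 for Pfkm, -0.06 to 0.10 for Eno1 and -0.03 to 0.13 for Ddit4 in TAZ-S89A over YAP-5SA, -0.19 to 0.20 for Ldha and -0.22 to 0.66 for Epas1 over YAP-S127A, and -0.02 to 0.26 for Bnip3 in YAP-5SA over YAP-S127A. Of the shares, 584 values kept their direction; Pfkfb3 in TAZ-S89A minus YAP-S127A was -2.87 percentage points without the second ID series, and without single libraries Egln1 ran from -3.49 to 0.19 and Hif1a from -0.0811 to 0.347 in that comparison, and Pfkp from -0.227 to 0.0389 in TAZ-S89A minus YAP-5SA. The cause of these changes was not tested. No paired analysis was possible because the labels give no replicate numbers shared across groups. Depth limits Slc2a3, Ldhb, Car12 and Epas1, whose lowest group has few counts.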

Other observations

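Further lists were counted beside the shares of all genes that were called, 57.9% in TAZ-S89A over YAP-5SA, 57.6% in TAZ-S89A over YAP-S127A and 55.2% in YAP-5SA over YAP-S127A. Of 13 tested genes that lead pyruvate into mitochondria, 2 were called higher and 3 lower in TAZ-S89A than in YAP-5SA, 5 and 1 against YAP-S127A, and 4 and 1 in YAP-5SA against YAP-S127A by edgeR, so fewer than those shares of the list were called in each comparison, with no test of the list. Pdk4, a pyruvate dehydrogenase kinase of fasting liver, averaged 60.9 ± 6.74 CPM in TAZ-S89A, 12.1 ± 1.37 CPM in YAP-5SA and 5.85 ± 0.317 CPM in YAP-S127A (SD, n = 5, 3 and 3), an order unlike that of its paralog Pdk1. The phosphatase Pdp2, which opposes these kinases, was at 29.1 ± 1.95, 7.76 ± 0.430 and 12.9 ± 0.833 CPM in the same order of groups.

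Of 7 pentose phosphate genes, 1 was higher and 2 lower in TAZ-S89A than in YAP-5SA, 4 and 0 against YAP-S127A, and 5 and 0 in YAP-5SA against YAP-S127A. Transaldolase Taldo1 averaged 54.1 ± 12.6 CPM in TAZ-S89A, against 229 ± 42.8 CPM for YAP-5SA and 61.8 ± 8.36 CPM for YAP-S127A. In the same order G6pdx, the entry enzyme, averaged 39.8 ± 11.4, 44.5 ± 1.75 and 22 ± 1.07 CPM. Of 8 tested glycogen genes, 1 was higher and 3 lower in TAZ-S89A than in YAP-5SA, 4 and 2 against YAP-S127A, and 5 and 1 in YAP-5SA against YAP-S127A. The liver phosphorylase Pygl had no count in TAZ-S89A, so with a floor of 3 counts over that group it was at least 823-fold higher in YAP-5SA, where it averaged 14.5 ± 1.11 CPM. Of 9 tested regulators of glycolytic genes, 1 was higher and 2 lower in TAZ-S89A than in YAP-5SA, 5 and 1 against YAP-S127A, and 5 and 0 in YAP-5SA against YAP-S127A. Tfeb, a lysosomal regulator, averaged 7.31 ± 1.18, 6.98 ± 0.875 and 2.66 ± 1 CPM in TAZ-S89A, YAP-5SA and YAP-S127A.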
